A study of Mus musculus with 2 samples.

Results

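The translation initiation factors and the eIF2 kinases were described in mouse bone-marrow-derived macrophages, primary cells of strain C57BL/6J grown out of marrow. The members were the genes whose symbol begins with Eif and a digit and that have at least 1 protein-coding transcript, which gave 52 of 21901 protein-coding genes. The rule left out 3 matching genes, those of the eIF2 gamma subunit among them, and another 11 matching symbols had no protein-coding transcript, of which 7 had 0 counts in both libraries. Polyadenylated RNA was sequenced from a single group, cells given 100 ng/mL lipid A, the membrane anchor of bacterial lipopolysaccharide, for 120 minutes. This stimulus is the one in the free text of the labels, whose structured fields give lipoprotein A, a protein. The group has 2 libraries, replicates 1 and 2, with a common donor record and no statement of separate animals. Unstimulated cells were not analysed here. The values are therefore levels after stimulation rather than responses to it, and no test between conditions or p-value is given.

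Initiation of translation begins when eIF2 carries the initiator tRNA to the small ribosomal subunit, where the eIF1 family and eIF3 hold the complex open for scanning. The eIF4 factors bind the cap of the mRNA and unwind its leader, and eIF5 and eIF5B then release eIF2 and join the large subunit. The eIF2 kinases phosphorylate eIF2 under stress, which blocks its nucleotide exchange by eIF2B and lowers initiation, and in macrophages the kinase encoded by Eif2ak2, PKR, also senses double-stranded RNA and is known as an interferon-stimulated gene.

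Totals were 33319563 expected counts for replicate 1 and 50334059 for replicate 2, so that a gene with 0 counts may still lie at up to 0.0902 and 0.0597 CPM, the value of 3 counts, for counting error only. Levels are given in TPM, which corrects counts for the length of the transcript and the size of the library, and come from the first of 2 deposited quantifications unless the second is named. At a level of 1 TPM in both libraries, all 8 macrophage markers were present, with a sum of 20044 and 26035 TPM in replicates 1 and 2. Granulocyte markers passed that level in 4 of 8 cases, with a sum of 517 and 67.2 TPM, and platelet markers in 2 of 3 cases, with a sum of 932 and 238 TPM. None of the B cell, T cell, NK cell, mast cell, stromal or erythroid markers reached 1 TPM in both libraries. Values with ± are means and SD over the 2 libraries, n = 2.

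Nearly every member was expressed. In both libraries, 50 of the 52 genes reached 1 TPM, or 96.2%, against 43.8% of all protein-coding genes, and 11 reached 100 TPM, or 21.2%, against 5.03%. In the second quantification 6 members reached 100 TPM. Both genes that missed 1 TPM encode relatives of better expressed members: Eif4e1b, the germline-type cap-binding protein, had 0 counts in both libraries, and Eif4ebp3, an eIF4E-binding protein, stood at 2.17 TPM in replicate 1 and 0.82 TPM in replicate 2. The members' median was 56.9 TPM, and the median of the 9890 protein-coding genes at 1 TPM or more on average was 14.4 TPM. Together the members held 4923 TPM in replicate 1 and 4294 TPM in replicate 2, or 0.492% and 0.429% of all TPM. The sum was uneven, with 34.7% of it in the 3 most abundant genes, Eif4a1, Eif1 and Eif5a. By complex the cap-binding group summed to the most, 1779 ± 189 TPM, then eIF3 at 1309 ± 56.0 TPM and the eIF1 family at 597 ± 50.8 TPM, while the kinases summed to 77.4 ± 8.55 TPM and eIF2B to 77.7 ± 7.73 TPM.

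**Figure D1:**
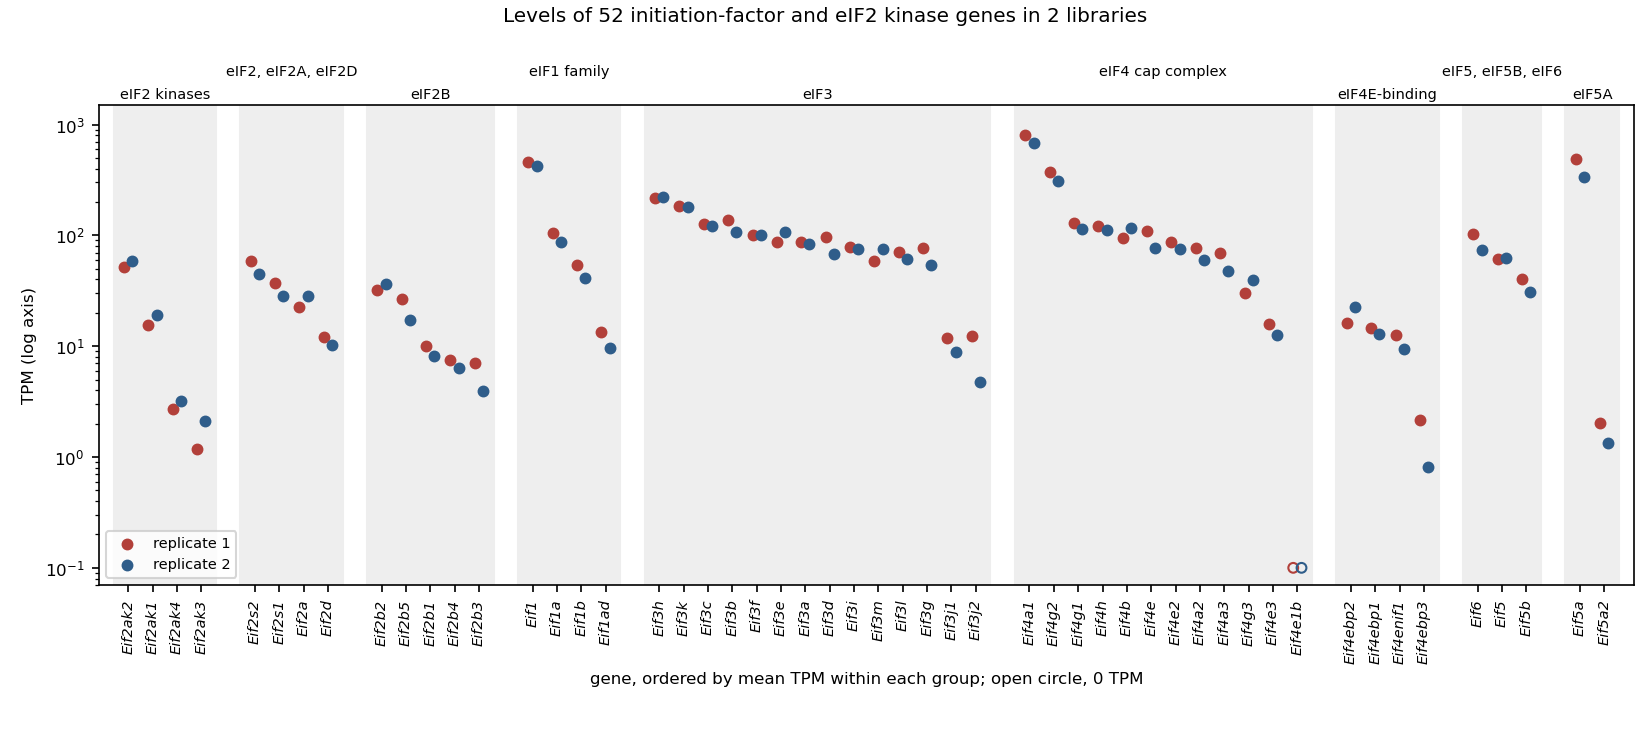
TPM on a log axis of the 52 members, grouped by complex and ordered by mean within each group, with replicate 1 to the left of replicate 2 for each gene and open circles at the foot of the axis for 0 TPM. Eif4a1, Eif1 and Eif5a stand highest at 744, 443 and 413 TPM on average, and each group except that of eIF5, eIF5B and eIF6 holds at least 1 gene below 15 TPM.

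Among the 4 eIF2 kinases, Eif2ak2 was the most abundant mRNA in both libraries, and the order of the kinases was the same in each. Eif2ak2 stood at 52.1 TPM in replicate 1 and 59.0 TPM in replicate 2, or 55.5 ± 4.89 TPM, from 4313 and 7105 counts. Eif2ak1, which encodes the heme-regulated kinase HRI, stood at 15.4 and 19.2 TPM in replicates 1 and 2. Eif2ak4, which encodes GCN2, the sensor of uncharged tRNA, stood at 2.71 and 3.19 TPM. Eif2ak3, which encodes PERK, the sensor of unfolded protein in the endoplasmic reticulum, was lowest at 1.17 and 2.12 TPM, from 109 and 298 counts. No kinase's range over the libraries touched that of its neighbour in this order. As a share of the summed kinase TPM, Eif2ak2 held 73.0% and 70.7% in replicates 1 and 2, Eif2ak1 21.6% and 23.0%, Eif2ak4 3.80% and 3.82%, and Eif2ak3 1.64% and 2.54%.

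Eif2ak2 was 3.38 and 3.08 times as abundant as Eif2ak1 in replicates 1 and 2, 19.2 and 18.5 times as abundant as Eif2ak4, and 44.5 and 27.8 times as abundant as Eif2ak3. It was also more abundant than the mRNA of its substrate, the eIF2 alpha subunit gene Eif2s1, by 1.39 and 2.09 times. Most of its TPM came from the 4313-base protein-coding transcript Eif2ak2-201, with 90.3% in replicate 1 and 89.0% in replicate 2. In the second deposited quantification, made from the reads and an index, Eif2ak2 stood at 51.8 and 52.2 TPM, and its share of kinase TPM averaged 73.9%.

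**Figure D2:**
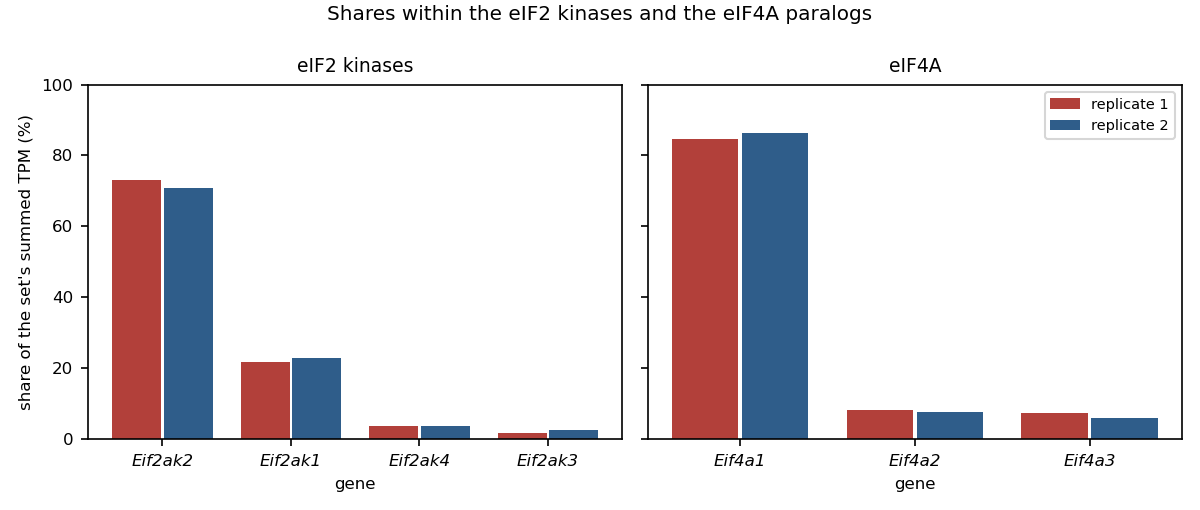
Share of each gene in the summed TPM of the 4 eIF2 kinases (left panel) and of the 3 eIF4A paralogs (right panel), in percent, with replicate 1 to the left of replicate 2. Eif2ak2 holds 73.0% and 70.7% of the kinase TPM and Eif4a1 84.7% and 86.4% of the eIF4A TPM.

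Eif2ak2 lies on chromosome 17 from 78852564 to 78882573 of mm10, on the minus strand. Its RefSeq promoter window (GRCm38.p6, 250 bases before to 50 after the start) was searched on both strands for GAAA followed 2 bases on by GAAA, the core of an interferon-response element. A match began 19 bases after the annotated start, and it is shown here, in capitals within 30 bases on the minus strand at chr17:78882535-78882564, because this gene leads the kinases.
Eif2ak2: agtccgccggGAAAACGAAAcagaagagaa
The same letters occurred in 3.44% of 32851 promoter windows and at 3.99% of genes, and at 3 of the 40 members with a window searched, the others being Eif2s1 and Eif3a. A match is a description of the letters and not of a bound site.

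The genes of eIF2 and of the alternative tRNA carriers lay between 11.2 and 52.1 TPM on average. Eif2s2, which encodes the beta subunit, was highest at 59.1 TPM in replicate 1 and 45.1 TPM in replicate 2, and Eif2s1 stood at 37.5 and 28.2 TPM. The beta to alpha ratio of these mRNAs was 1.58 and 1.60, so that it differed little between the libraries while both levels were higher in replicate 1. Eif2a, whose product can deliver initiator tRNA without GTP, stood at 22.7 and 28.1 TPM, and Eif2d, which encodes a factor of non-canonical initiation and ribosome recycling, was lowest at 12.1 and 10.3 TPM.

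The 5 subunits of eIF2B, the exchange factor that recharges eIF2 with GTP, were not expressed evenly. Eif2b2, for the beta subunit, was highest at 32.0 TPM in replicate 1 and 36.4 TPM in replicate 2, and Eif2b5, for the catalytic epsilon subunit, stood at 26.6 and 17.3 TPM. Eif2b1 and Eif2b4, for the alpha and delta subunits, stood at 9.95 and 8.13 TPM and at 7.58 and 6.41 TPM, and Eif2b3, for gamma, was lowest at 7.06 and 3.96 TPM. The ratio of Eif2b2 to Eif2b3 was 4.53 and 9.19 in the first quantification and 3.20 and 5.90 in the second, although the complex holds its subunits in equal number. In the first quantification part of the Eif2b2 level came from a very short annotated transcript: Eif2b2-206, a retained-intron RNA of 338 bases, held 30.1% and 43.1% of the gene's TPM from 18.1 and 44.8 counts. Without it, the protein-coding transcript Eif2b2-201 alone was at 19.5 and 19.3 TPM in replicates 1 and 2, below Eif2b5 in replicate 1. The second quantification put Eif2b2 at 21.5 and 19.2 TPM and Eif2b5 at 22.03 and 12.9 TPM, so the order of these subunits in replicate 1 depended on the quantification.

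In the eIF1 family, which controls start codon choice during scanning, Eif1 was the most abundant at 462 TPM in replicate 1 and 424 TPM in replicate 2. Its paralog Eif1b stood at 53.9 and 41.5 TPM, so that Eif1 was 8.57 and 10.2 times as abundant. Eif1a, which encodes an eIF1A protein that works with eIF1, stood at 104 and 86.2 TPM, and Eif1ad, which encodes a protein with an eIF1A-like domain, was lowest at 13.5 and 9.58 TPM.

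The 14 eIF3 genes fell into a set of 12 and a lower pair. Without the loosely attached J subunit, the means over both libraries of the 12 other subunit genes lay within 3.37-fold of each other. These means ran from 65.3 TPM for Eif3g, which encodes an RNA-binding subunit, to 220.3 TPM for Eif3h. Their median was 91.4 TPM and their coefficient of variation 45.4%. Within single libraries the spread was wider. Eif3h was 4.15 times Eif3g in replicate 2, and in replicate 1 the lowest of the 12 was Eif3m at 58.95 TPM. Eif3h stood at 217 TPM in replicate 1 and 224 TPM in replicate 2, and Eif3k, the next highest, at 184 and 181 TPM. Both were nearly equal in the libraries, whereas Eif3d, whose product can itself bind the cap of some mRNAs, stood at 97.0 and 67.2 TPM and Eif3e at 87.0 and 107 TPM. The largest subunit, encoded by Eif3a, stood at 87.4 and 84.0 TPM.

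The J subunit is encoded by a pair of near-identical genes, which were lower than every other eIF3 gene in both libraries. Eif3j1 stood at 11.96 TPM in replicate 1 and 8.88 TPM in replicate 2, and Eif3j2 at 12.2 and 4.80 TPM. Their coding sequences matched at 781 of 783 aligned bases, and 94.0% of the 31-base words of the Eif3j2 transcript also occur in Eif3j1, so the split between them is uncertain. Eif3j1 held 49.4% and 64.9% of the pair's TPM in the first quantification but 35.6% and 38.5% in the second, while the pair's sum was 24.2 and 13.7 TPM in the first and 23.6 and 13.7 TPM in the second. The sum thus differed less between the quantifications than either gene did.

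In the cap-binding group, Eif4a1, which encodes the RNA helicase of the complex, was the most abundant of all 52 members. It stood at 808 TPM in replicate 1 and 681 TPM in replicate 2, or 744 ± 89.7 TPM, from 25407 and 31952 counts, and ranked above 98.3% of the protein-coding genes at 1 TPM or more. Its paralog Eif4a2 stood at 77.0 and 59.8 TPM and Eif4a3, whose product belongs to the exon junction complex, at 69.0 and 47.6 TPM. Eif4a1 held 84.7% and 86.4% of the summed eIF4A TPM, Eif4a2 8.07% and 7.59%, and Eif4a3 7.23% and 6.04%. Eif4a1 was thus 10.5 and 11.4 times as abundant as Eif4a2. Against Eif4e, which encodes the cap-binding protein, it was 7.41 and 8.79 times as abundant. Much of that Eif4e level lay in short transcripts, given below.

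Eif4a1 lies on chromosome 11 from 69666936 to 69672423 of mm10, on the minus strand, Eif4a2 on chromosome 16 from 23107444 to 23114136 on the plus strand, and a processed pseudogene, Eif4a-ps4, on chromosome 1 from 60703932 to 60705149 on the plus strand. The pseudogene equals the Eif4a1 coding sequence at 1217 of 1218 bases, and the 1 difference is G534A, with the base of Eif4a1 first and positions counted from its first coding base. Eif4a2 equals Eif4a1 at 77.8% and Eif4a3 at 67.2% of aligned coding bases. The window around that difference is shown because few reads can tell the pseudogene from its parent. Coding bases 484 to 583 of Eif4a1 and Eif4a-ps4 and 487 to 586 of Eif4a2 are given from the GENCODE M21 transcripts (mm10), with capitals at bases that differ from Eif4a1.
Eif4a1-213: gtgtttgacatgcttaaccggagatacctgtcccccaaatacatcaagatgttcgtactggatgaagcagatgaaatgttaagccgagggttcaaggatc
Eif4a-ps4-201: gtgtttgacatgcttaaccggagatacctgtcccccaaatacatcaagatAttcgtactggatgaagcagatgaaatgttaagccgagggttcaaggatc
Eif4a2-201: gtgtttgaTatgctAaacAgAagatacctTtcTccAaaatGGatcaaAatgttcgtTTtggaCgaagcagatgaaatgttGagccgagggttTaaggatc
Within these bases Eif4a2 differs from Eif4a1 at 15 positions and the pseudogene at 1.

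The 2 quantifications divided the reads of this pair differently. In the first, Eif4a-ps4 was listed at 37.4 TPM in replicate 1 and 28.8 TPM in replicate 2, and in the second at 183 and 171 TPM, which is 4.89 and 5.92 times as much. Eif4a1 was 645 and 479 TPM in the second, against 808 and 681 TPM in the first. The summed TPM of Eif4a1 and Eif4a-ps4 was closer, at 828 and 649 TPM in the second quantification and 845 and 710 TPM in the first. The share of the sum given to Eif4a1 was 77.9% and 73.7% in the second and 95.6% and 95.9% in the first. The level of Eif4a1 is thus uncertain by the part assigned to the pseudogene, while its place as the most abundant member held in both quantifications.

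The scaffold genes of the cap complex were led by Eif4g2, which encodes a relative of eIF4G that lacks the eIF4E-binding part and serves cap-independent initiation. Eif4g2 stood at 374 TPM in replicate 1 and 308 TPM in replicate 2, Eif4g1 at 128 and 115 TPM, and Eif4g3 at 30.1 and 39.9 TPM. Eif4g2 was 2.91 and 2.68 times as abundant as Eif4g1. Part of its level came from Eif4g2-207, a processed transcript of 429 bases, with 20.2% and 5.41% of its TPM from 269 and 88.2 counts. In the second quantification Eif4g2 stood at 286 and 257 TPM, with Eif4g2-207 at 6.22 and 0.338 TPM. The helper genes Eif4h and Eif4b, whose products stimulate the helicase, averaged 116 ± 6.29 and 106 ± 16.1 TPM.

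Among the cap-binding genes, Eif4e stood at 109 TPM in replicate 1 and 77.5 TPM in replicate 2, and Eif4e2, which encodes the repressive cap-binding protein 4EHP, at 87.4 and 75.2 TPM. The 2 genes took 51.4% and 46.8%, and 41.2% and 45.5%, of the summed TPM of Eif4e, Eif4e2 and Eif4e3. Eif4e was thus the higher in each library, by little in replicate 2, although the TPM ranges of the 2 genes over the libraries overlapped. It was also the higher in the second quantification, at 98.6 and 67.4 TPM against 76.1 and 61.7 TPM. Eif4e3 was lower at 15.9 and 12.7 TPM, and Eif4e1b, at 0 in the first quantification, was listed at 0.687 and 0.306 TPM in the second.

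The E-box, CACGTG, a binding sequence of MYC and its relatives, occurred in the RefSeq promoter windows of 10 of the 40 members searched, or 25% of them, against 8.09% of all genes with a window and 7.15% of windows. Of the cap-binding group Eif4a1, Eif4e, Eif4g1 and Eif4h held it, and outside the group Eif5a, Eif5a2, Eif1b, Eif3a, Eif3f and Eif3k did. Eif4a1, Eif4e and Eif4g1 are shown because they encode the helicase, the cap-binding protein and the scaffold of 1 complex, with 30 bases around the match nearest the start and the motif in capitals. Eif4a1 is read on the minus strand at chr11:69672595-69672624, 189 bases before its start. Eif4e is read on the plus strand at chr3:138527192-138527221, 64 bases before its start, and Eif4g1 on the plus strand at chr16:20672730-20672759, 16 bases after. Each start is that of the RefSeq window. In GENCODE M21 Eif4e begins at 138526179 and Eif4g1 at 20668313, so these 2 matches lie within the annotated genes.
Eif4a1: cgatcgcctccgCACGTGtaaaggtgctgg
Eif4e: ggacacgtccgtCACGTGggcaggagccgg
Eif4g1: ctctgcgccggtCACGTGgggcgctggctg
These counts describe the letters in the windows, and no binding was measured. The 27025 genes with a window were not limited to expressed ones, whereas nearly every member was expressed. They also outnumber the 21901 protein-coding genes. Some genes, Eif5a among them, had more than 1 window, and the number of windows per gene was not matched.

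The genes of the eIF4E inhibitors were below Eif4e in gene TPM. Eif4ebp2 and Eif4ebp1 encode proteins that hold eIF4E away from eIF4G until mTOR phosphorylates them, and they stood at 16.2 and 22.5 TPM and at 14.5 and 12.8 TPM in replicates 1 and 2. Eif4e was 6.75 and 3.45 times as abundant as Eif4ebp2 and 7.52 and 6.04 times as abundant as Eif4ebp1. Much of the Eif4e level lay in short transcripts. Eif4e-205, of 729 bases, stood at 42.06 and 28.25 TPM and Eif4e-202, of 856 bases, at 34.28 and 18.24 TPM. The 4991-base Eif4e-201 stood at 24.6 and 20.0 TPM, and Eif4e-204, of 1421 bases, at 8.07 and 9.94 TPM. Eif4e-201 alone was below Eif4ebp2 in replicate 2, but together with Eif4e-204 it was above Eif4ebp2 in both libraries. The size of the ratios thus depends on the short transcripts. Eif4enif1, whose product carries eIF4E into the nucleus, stood at 12.7 and 9.46 TPM. In the first quantification the 4 genes of the group summed to 45.5 and 45.6 TPM, nearly the same in both libraries, although the shares within them differed. In the second, Eif4ebp2 stood at 14.6 and 18.7 TPM, Eif4ebp1 at 12.8 and 11.1 TPM and Eif4enif1 at 13.4 and 7.51 TPM. In the first, Eif4ebp2 held 49.2% and 62.2% of the summed TPM of the Eif4ebp genes in replicates 1 and 2, and Eif4ebp1 44.2% and 35.5%. Eif4ebp3 held 6.61% and 2.27% there, from only 22.6 and 12.6 counts. In the second quantification Eif4ebp3 stood at 0.493 and 0.673 TPM, so its fall from replicate 1 to replicate 2 was not seen there.

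Of the factors of subunit joining, Eif6, whose product keeps the ribosomal subunits apart, was highest at 103 TPM in replicate 1 and 73.1 TPM in replicate 2. Eif5, which encodes the GTPase activator of eIF2, stood at 61.1 and 62.3 TPM, and Eif5b, which encodes the GTPase of subunit joining, was lowest at 40.5 and 30.9 TPM. In TPM, Eif5 differed least between libraries and Eif6 most. In the normalised counts used below, Eif5b differed least. Its log2 ratio of replicate 1 over replicate 2 was -0.003, against -0.21 for Eif5 and 0.36 for Eif6. Eif5a, whose hypusine-modified product acts mainly in elongation and termination, stood at 490.3 and 337 TPM, which was 243 and 251 times the level of its paralog Eif5a2 at 2.02 and 1.34 TPM. The coding sequences of these paralogs matched at 73.2% of aligned bases, and 14.1% of the 31-base words of Eif5a occur in other genes.

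The only difference the labels allow is between the libraries, taken here as the log2 ratio of replicate 1 over replicate 2 of TMM-normalised counts for the 50 members with a mean count of 50 or more. It compares single libraries, has no replicate check and is a description of how well they match. The members' median log2 ratio was 0.03, against -0.03 over 10443 genes, and their median absolute log2 ratio was 0.26 against 0.24. Of the members 27 were higher in replicate 1, or 54%, against 46.6% of all genes, 4 were 1.5-fold or more apart, or 8%, against 14.5%, and 2 were 2-fold or more apart, or 4%, against 3.97%. The members thus differed between libraries about as much as other genes did.

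The members 1.5-fold or more apart were Eif2ak3, Eif4ebp2, Eif2b3 and Eif3j2. Eif2ak3 had a log2 ratio of -1.02, or 2.02-fold lower in replicate 1, and Eif4ebp2 of -0.60. The list depended on the scaling, with 5 members under plain CPM and 3 under log2 of TPM + 1. Eif4ebp2 was then less than 1.5-fold apart, at -0.44 and -0.45, and so was Eif2ak3 under log2 of TPM + 1, at -0.52. Eif2b3 had a log2 ratio of 0.71 and Eif3j2 of 1.22, the value furthest from 0 in the first quantification, from a gene whose reads are shared. Eif3j2 had a log2 ratio of 0.60 in the second quantification, nearer to 0 than Eif2ak3 at -0.94. All 4 kinases were lower in replicate 1, where 46.6% of all genes were higher. Their log2 ratios were -0.29 for Eif2ak2, -0.45 for Eif2ak1, -0.42 for Eif2ak4 and -1.02 for Eif2ak3. This direction held for each under DESeq2 size factors, plain CPM, log2 of TPM + 1 and the second quantification, all from the same 2 libraries. Both eIF5A genes were higher in replicate 1, at 0.37 for Eif5a and 0.46 for Eif5a2. So were all 4 genes of the eIF1 family, from 0.003 for Eif1 upward. The gene furthest from 0 was Eif2s1 at 0.29 in the eIF2 group and Eif1ad at 0.38 in the eIF1 family. It was Eif4g3 at -0.51 in the cap-binding group and Eif6 at 0.36 among the joining factors. The granulocyte and platelet marker sums given above were also higher in replicate 1, the share of TPM in mitochondrial genes was 7.12% and 5.64% and that in rRNA genes 6.82% and 10.5% in replicates 1 and 2, and the part of these in the ratios was not tested. Across the 50 members Spearman's rho of the ratio with the deposited transcript-averaged length of each gene was -0.23, against -0.11 over all 10443 genes. This is a description across genes that share the libraries.

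**Figure D3:**
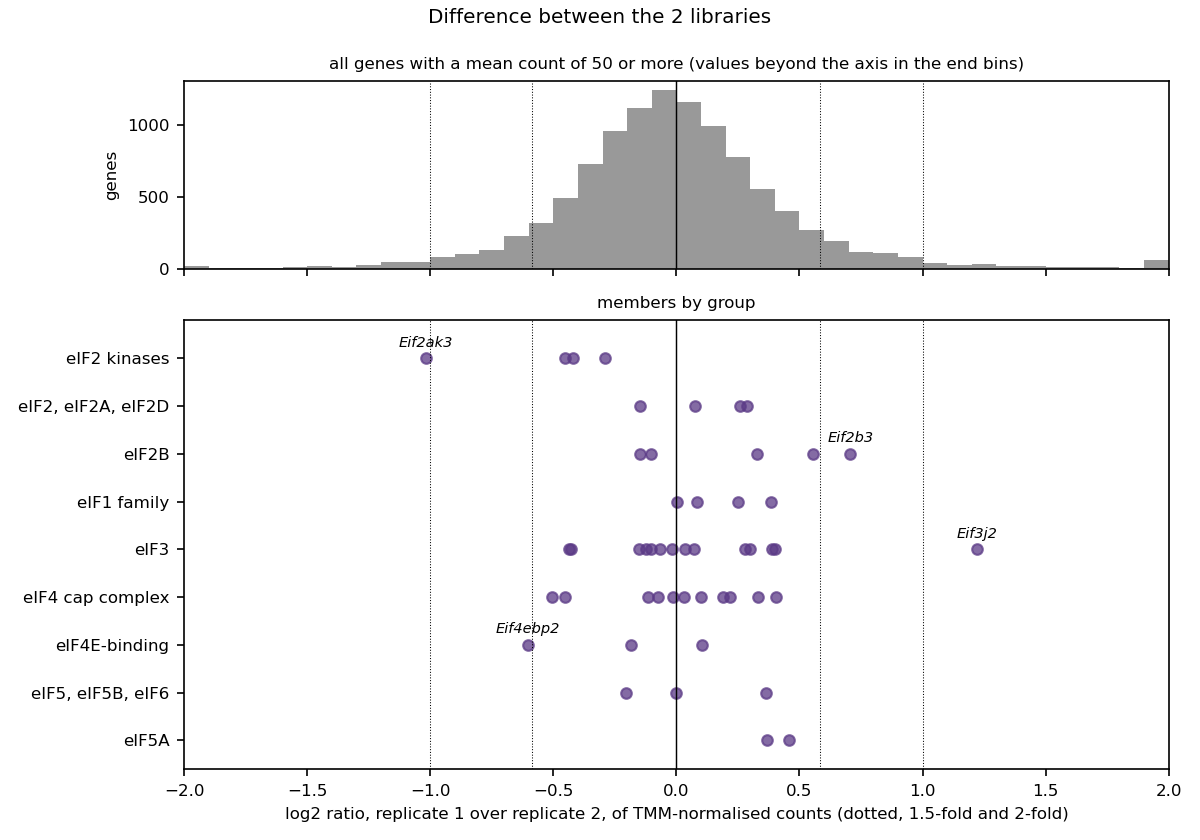
Log2 ratio of replicate 1 over replicate 2, with all 10443 genes as a histogram above and the 50 members as points by group below, and dotted lines at 1.5-fold and 2-fold. Most members sit between the inner dotted lines, the 4 kinases lie left of 0, and Eif3j2 lies furthest right at 1.22.

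Most members drew the larger part of their TPM from 1 transcript. For the 45 members at 5 TPM or more with several annotated transcripts, the median share of the leading transcript in gene TPM was 92.3%, against 79.1% over 7033 genes. It held under 50% in 4 members, or 8.89%, against 16.8% of those genes: Eif4g1, Eif4e, Eif4g3 and Eif4a2. In the second quantification it held under 50% in 8, these 4 and Eif1a, Eif4h, Eif5 and Eif5b. In Eif4e the leading transcript was Eif4e-205, of 729 bases, with 38.6% and 36.5% of the gene's TPM from 423 and 418 counts in replicates 1 and 2, while the 4991-base Eif4e-201 held 22.6% and 25.9% from 2617 and 3135 counts. Eif4e-202 led instead in the second quantification, with 34.6% and 30.6%. Eif4g1-202 held 39.8% and 39.0% of its gene's TPM and Eif4g3-215 38.4% and 36.2%. In replicate 2 alone the count was 7, with Eif2a, Eif4e2 and Eif4h added. These are shares per length, so short annotated transcripts weigh more than in counts.

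The leading transcript was not protein coding in 1 of the 45 members, or 2.22%, against 5.23% of all genes so tested. That member was Eif4a2, led by Eif4a2-210, annotated to nonsense-mediated decay, with 37.5% and 33.5% of its TPM from 946 and 967 counts in replicates 1 and 2. All transcripts of Eif4a2 of that annotated type held 51.9% and 53.5% of its TPM, and protein-coding transcripts 41.0% and 40.1%. In the second quantification the first share was 37.9% and 27.5% and the second 54.7% and 64.0%, with Eif4a2-201 leading, so the type held at least 27.5% of Eif4a2 TPM in each library and quantification, but the leading transcript changed. In replicate 1 alone, Eif4ebp1 was also led by a transcript that is not protein coding.

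Counted by type, protein-coding transcripts held a median of 99.2% of TPM over the 47 members at 5 TPM or more, against 97.6% over all genes so tested, and under 75% in 6 members, or 12.8%, against 14.8%. These were Eif4a2, Eif2a, Eif4ebp1, Eif2b2, Eif4g1 and Eif5b. With the second quantification 4 members were under 75%, Eif4a2, Eif4ebp1 and Eif5b again and Eif4a1, which had 73.8% and 75.3% in replicates 1 and 2. In the first, Eif2a was the least alike in the libraries, with a protein-coding share of 73.9% in replicate 1 and 39.9% in replicate 2. The retained-intron transcript Eif4g1-210 held 31.2% and 24.2% of Eif4g1, and Eif4ebp1-202, a processed transcript of 798 bases, held 51.5% and 35.2% of Eif4ebp1. Eif5b-203, of 578 bases, held 32.7% and 19.6% of Eif5b from 89.0 and 59.7 counts, against 4130 and 5642 counts of the protein-coding Eif5b-201. When transcripts under 1000 bases were left out, a choice made after the data were seen, 3 of the 6 stayed under 75%, Eif4a2 at 43.6% and 42.5%, Eif2a at 73.9% and 39.9% and Eif4g1 at 62.5% and 71.4%. Of these 3, Eif2a and Eif4g1 were over 75% in the second quantification, Eif2a at 88.7% and 79.9% and Eif4g1 at 78.3% and 92.5%, and Eif4a2 alone stayed under 75% there. In the first quantification the low shares of Eif2b2 and Eif4ebp1 came from annotated transcripts under 1000 bases. That of Eif5b did too, but in the second its coding share was 36.3% and 41.8%, with the 5788-base retained-intron transcript Eif5b-202 at 12.3 and 10.3 TPM.

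**Figure D4:**
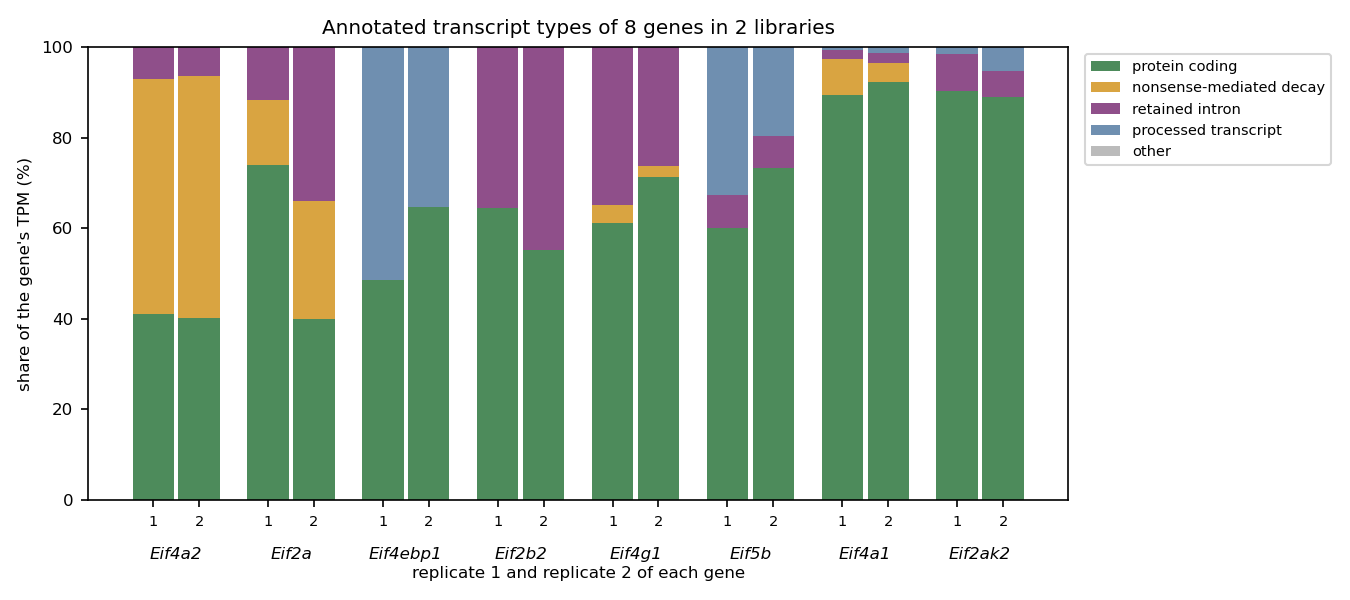
Share of the gene's TPM by annotated transcript type, in percent, for the 6 members whose protein-coding share was under 75% and for Eif4a1 and Eif2ak2, with replicate 1 to the left of replicate 2. Eif4a2 has the larger part of its TPM in transcripts annotated to nonsense-mediated decay, 51.9% and 53.5%, whereas Eif4a1 is 89.5% and 92.2% protein coding, all in the first quantification. In the second, Eif4a1 is 73.8% and 75.3% protein coding.

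Across the quantifications the members kept their levels up to a common scale. The median of the second over the first quantification was 0.865 in replicate 1 and 0.801 in replicate 2 over 50 members, against 0.886 and 0.814 over all protein-coding genes tested. After division by the medians of all genes, none of the 50 members was 1.5-fold or more apart in both libraries, against 2.15% of genes. The nearest were Eif3j2, at 1.40 and 2.15, and Eif2b2, at 0.757 and 0.649 of the scaled value in replicates 1 and 2. Of the members 13 had at least 20% of the 31-base words of their longest protein-coding transcript in other genes and 7 had none. Besides Eif4a1, Eif3j1 and Eif3j2, the shared words were most frequent in Eif4ebp3 at 66.4%, Eif3m at 57.9%, Eif4a3 at 44.8% and Eif3e at 42.0%, and the counts of these genes are uncertain where reads fall on the shared words. Between the quantifications Eif3m and Eif3e nevertheless lay close to the other genes, at 0.942 and 0.924 and at 0.966 and 0.953 of the scaled value.

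**Figure D5:**
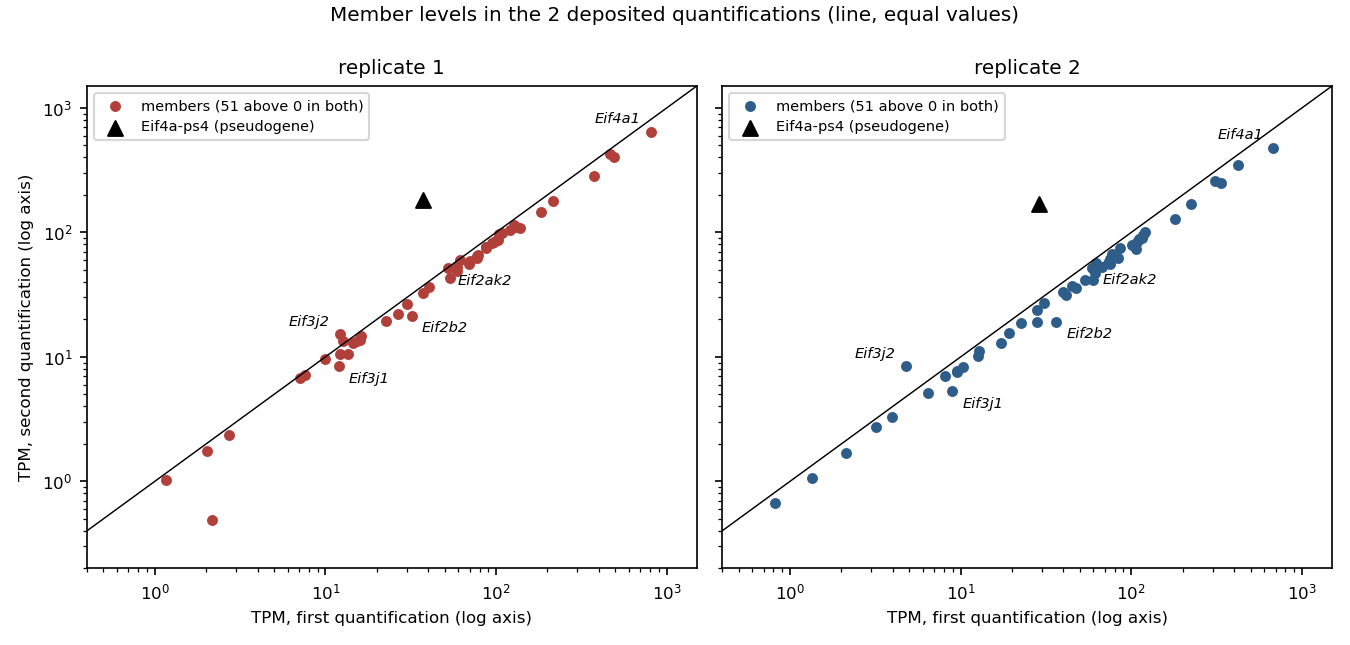
TPM of the members in the second quantification against the first, both on log axes, for replicate 1 on the left and replicate 2 on the right, with the line of equal values. Most members lie just under the line, with a median second over first of 0.865 and 0.801, while the pseudogene Eif4a-ps4 lies above it at 183 and 171 TPM against 37.4 and 28.8 TPM.

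Of 36 listed partners outside the family, 35 reached 1 TPM in both libraries and 5 reached 100 TPM, where 43.8% and 5.03% of all protein-coding genes did, and their median was 32.3 TPM. The phosphatase side of eIF2 was uneven. Ppp1r15a, which encodes the inducible eIF2 phosphatase subunit GADD34, stood at 256 TPM in replicate 1 and 258 TPM in replicate 2. Ppp1r15a was thus above each of the 4 kinases. Ppp1r15b stood at 99.5 and 124 TPM. Of the listed catalytic genes, Ppp1ca stood at 319 and 262 TPM and Ppp1cc at 116 and 152 TPM. Ppp1cb, at 34.3 and 32.2 TPM, was below Eif2ak2. Of the effectors that eIF2 phosphorylation favours, Atf4 stood at 60.3 and 54.0 TPM and Ddit3 at 55.2 and 75.7 TPM. Of the regulators of PKR, Adar stood at 50.3 and 62.9 TPM and Dnajc3 at 20.3 and 19.3 TPM, and of those of GCN2, Impact stood at 13.4 and 9.13 TPM. Pabpc1, for the poly(A)-binding protein that joins eIF4G, was highest at 512 and 675 TPM, and Pdcd4, for an inhibitor of eIF4A, was among the lowest at 2.19 and 3.27 TPM. Impact and Pdcd4 were also the 2 of 35 partners 1.5-fold or more apart between libraries, where 14.5% of all genes were, with log2 ratios of 0.86 and -0.63. Mcts2, a paralog of the recycling gene Mcts1, was the 1 partner under 1 TPM, at 0.85 and 0.43 TPM.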

How the data were processed

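Polyadenylated RNA of 1 group of stimulated macrophages was sequenced in 2 libraries, with groups and replicate numbers taken from the labels. Per the file headers, the authors deposited for each library a gene table and a transcript table with expected counts, TPM and, per transcript, its percent of the gene, named as RSEM names its columns, and a second transcript table with estimated counts and TPM named as kallisto does. Per the deposited descriptions, a transcriptome alignment gave the first 2, and an index with 4 read files gave the second transcript table, with mm10 and GENCODE M21. Program versions are not given in the sources used here, nor is the use of strand, so overlapping genes cannot be told apart by strand. TPM weighs short transcripts more than counts do.

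The second table was summed by gene and transcript shares were taken of summed transcript TPM. Expected counts were rounded for ratios, which used edgeR 4.0.16 TMM factors (R 4.3.3), a prior of 0.5 counts and a minimum mean count of 50 per gene. The ratio was tested on simulated data. Shared sequence was counted as 31-base words, and Biopython 1.88 aligned the coding sequences. Promoters came from RefSeq (GRCm38.p6), and windows on chromosome 18 were not searched. Alternatives were DESeq2 1.42.0 size factors, plain CPM, log2 of TPM + 1, other minimums and scalings, posterior mean TPM, the second quantification, protein-coding transcripts alone and each replicate alone. Per-library values are given for the kinases, the eIF4A paralogs, in each group the highest, the lowest and the gene furthest apart between libraries, members 1.5-fold or more apart and members whose leading transcript was under 50% or not protein coding. Other named genes were chosen after their values were seen. The members, the lists and these rules were chosen with earlier results of these data known.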

Additional observations from a re-analysis of the deposited data

How the results depend on the processing

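No paired analysis was possible because the labels give 1 group, and no result rests on a test. The 2 libraries limit every SD, and with single libraries on each side of a ratio no call can be made.

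In the second quantification 6 members were at 100 TPM or more and the members' median was 48.9 TPM. Its sums were 102 TPM for Eif2s1, Eif2s2, Eif2a and Eif2d together, 57.3 TPM for eIF2B and 520.3 TPM for the eIF1 family. For eIF3 the sum was 1048 TPM, for the cap-binding group 1412 TPM and for the eIF4E-binding group 39.6 TPM. There the share of Eif2ak2 among the kinases was 73.9%, 8 members had a leading transcript under 50%, 0 had one that was not protein coding, the median coding share was 98.8%, and 0 members were 2-fold apart between libraries. Over protein-coding transcripts alone, Eif2ak2 held 69.7% of the kinase TPM and Eif4a1 89.0% of the eIF4A TPM. Both further alternatives were chosen after the data were seen: with the pseudogene joined to it, Eif4a1 held 88.4% in the second quantification, and over transcripts of 1000 bases or more 3 members had a coding share under 75% and the median was 100%.

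CPM with no further normalisation moved the median log2 ratio of all genes to 0.14 and that of members to 0.20, and log2 of TPM + 1 gave 0.21 for members, with 1 member 2-fold apart under each, while 39 and 37 members were then higher in replicate 1. DESeq2 size factors gave a median of 0.0225. With each replicate left out in turn, the members' median was 50.7 to 59.0 TPM, 6 to 7 members had a leading transcript under 50%, 1 to 2 one that was not protein coding, and the median coding share was 98.9% to 99.2%. The causes of these shifts were not tested.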
